A study of Mus musculus with 483 samples.

Results

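Among the 483 single cells of this mouse series were endothelial cells with abundant transcripts of both Top2a and Mki67, and these cycling cells are described here. They were selected from the 395 cells that the labels place in ICGS clusters 1, 2 and 3, on a level of at least 20 CPM of each gene, where CPM scales a cell's counts to the same total of gene-assigned reads. They made up 55.2% of those cells: 61 of 97 Ctrl and 54 of 86 aDll4-treated cells in cluster 1, 34 of 73 and 38 of 72 in cluster 2, and 12 of 31 and 19 of 36 in cluster 3. The cells set against them were those of the same clusters with both genes below 1 CPM, called non-cycling below, of which there were 15 (11 Ctrl and 4 treated). The remaining cells, 83 Ctrl and 79 treated, lay between the thresholds: 66 passed for Top2a alone, 23 for Mki67 alone and 73 for neither. All cells were sorted from the aorta-gonad-mesonephros region of the mouse embryo as CD31-positive, Kit-positive and CD45-negative. The series concerns the Notch ligand Dll4 and the formation of blood stem cells, and it compares cells treated with and without aDll4. The labels state no genotype, strain, age, dose or time, do not explain aDll4, and name no embryo or culture. Each treatment is therefore 1 sample, cells are not replicates of it, and no difference below has a test.

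Top2a encodes the topoisomerase that untangles replicated DNA, and Mki67 encodes a protein that coats mitotic chromosomes. Both genes are transcribed mainly from late S phase to mitosis, so their messages mark the later part of the cell cycle. In the embryonic aorta, arterial identity depends on Notch signalling, in which the ligand Dll4 on one endothelial cell activates Notch1 and Notch4 on the next. In other endothelium, arterial specification has been linked to withdrawal from the cell cycle through Notch, the connexin Gja4 and the kinase inhibitor Cdkn1b. Hemogenic endothelial cells of the same vessel switch on Runx1 and bud into clusters of blood cells.

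The threshold split a continuous range of levels, because 17 cycling cells had less than 40 CPM of Top2a or Mki67. A Ctrl cell of cluster 1 just inside it had 46.1 CPM of Top2a and 20.6 CPM of Mki67, and a treated cell of cluster 1 just outside had 126.2 and 17.9 CPM. A Ctrl cell of cluster 3 with 1793 CPM of Top2a stayed outside with 17.2 CPM of Mki67. At the lower threshold, a Ctrl cell with 0.865 CPM of Top2a and 0 of Mki67 counted as non-cycling, while one with 0 and 1.05 CPM did not. Of the 15 non-cycling cells, 8 had no read of either gene. Because the non-cycling cells were so few, a second comparison group was added after the data had been seen. It holds every cell of the 3 clusters with both genes below 20 CPM, called low cells below: 48 Ctrl cells (11 non-cycling and 37 others) and 40 treated cells (4 and 36).

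**Figure D1:**
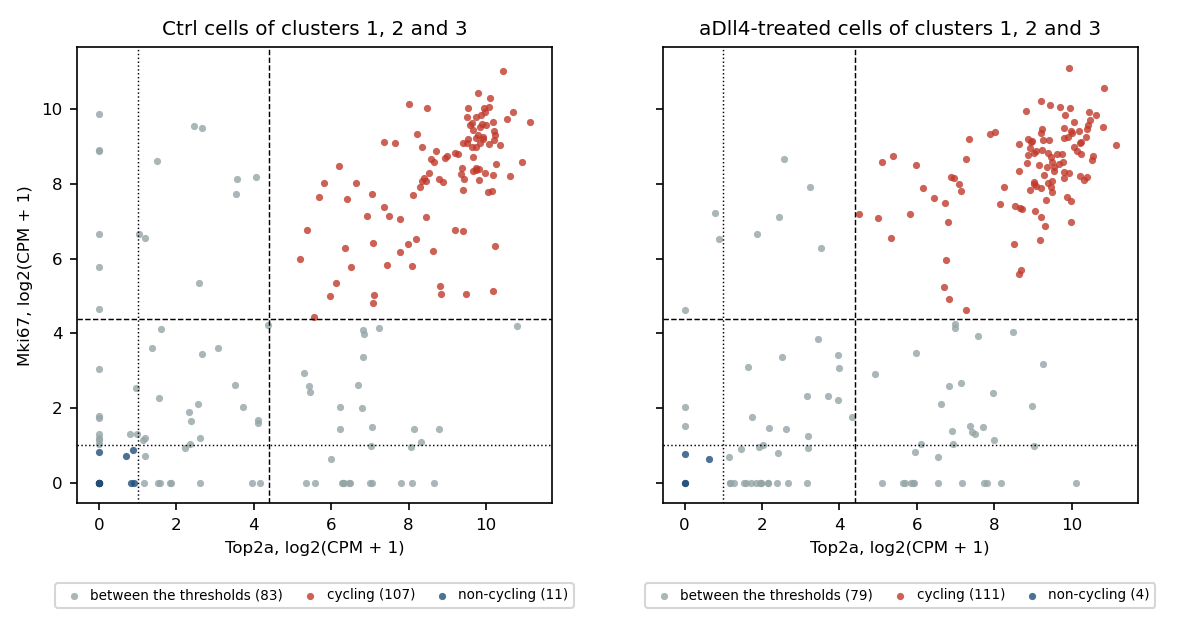
Level of Top2a (horizontal) and Mki67 (vertical) in each cell of clusters 1, 2 and 3, as log2(CPM + 1), for Ctrl cells (left) and aDll4-treated cells (right). Each point is 1 cell, dashed lines mark 20 CPM and dotted lines 1 CPM. The cycling cells lie in the upper right, and the 11 and 4 non-cycling cells lie in the lower left corner.

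Other genes of late cell cycle stages were abundant in most, not all, of the cycling cells. Ube2c, a ubiquitin-conjugating enzyme of mitotic exit, had at least 20 CPM in 94% of them, with a median of 361 CPM. Cdc20, which activates the anaphase-promoting complex, reached that level in 80.7% (median 177.6 CPM), as did the mitotic cyclin Ccnb1 (80.7%, median 100.6 CPM). The mitotic kinases Plk1 and Aurka did so in 79.8% and 72.9%. All 5 of these genes were at 20 CPM or more in 61% of cycling cells, against 3.70% of the cells between the thresholds, and 9 cycling cells had none of them there. The S phase genes Pcna and Mcm6 were at 20 CPM or more in 91.7% and 81.2% of cycling cells. Ccne2 and Cdc6, checked beside them, reached that level in only 23.9% and 35.3%, each with a median of 0 CPM. Of the S phase transcripts checked, some were therefore common in cycling cells and others were not. None of the 15 non-cycling cells had 3 or more of the 5 mitotic genes at 20 CPM. Their name describes the rule only, since 9 of them had at least 20 CPM of the kinase Cdk1 (median 70.2 CPM) and 11 had as much of the replication factor Mcm6 (median 256 CPM). The low cells of both treatments also carried cell cycle transcripts. Of these 88 cells, 67% had at least 20 CPM of Cdk1, 69.3% of Pcna, 77.3% of Mcm6 and 33% of Ube2c. Comparisons with them are therefore not between dividing and resting cells.

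The promoters of these genes hold short elements, of which CCAAT is in each of them and TTTGAA is not. The 5 promoters shown are those of the 2 genes on which the cells were chosen and of 3 genes on which they were checked. The sequences are the 250 bases before the annotated start in RefSeq (build GRCm38.p6, read along the gene). Top2a is at chr11:99024190-99024439 (minus strand), Mki67 at chr7:135716380-135716629 (minus), Cdc20 at chr4:118437344-118437593 (minus), Ube2c at chr2:164769679-164769928 (plus) and Ccnb1 at chr13:100786487-100786736 (minus). Capitals mark 2 motifs on either strand: TTTGAA (reverse TTCAAA), the core of the cell cycle homology region that the MuvB complex reads, and CCAAT (reverse ATTGG), bound by NF-Y.
Top2a: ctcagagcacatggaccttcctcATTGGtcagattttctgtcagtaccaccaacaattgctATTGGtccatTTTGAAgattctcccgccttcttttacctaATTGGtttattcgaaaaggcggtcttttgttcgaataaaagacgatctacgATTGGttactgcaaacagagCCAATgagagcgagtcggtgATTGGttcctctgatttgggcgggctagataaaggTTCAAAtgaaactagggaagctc
Mki67: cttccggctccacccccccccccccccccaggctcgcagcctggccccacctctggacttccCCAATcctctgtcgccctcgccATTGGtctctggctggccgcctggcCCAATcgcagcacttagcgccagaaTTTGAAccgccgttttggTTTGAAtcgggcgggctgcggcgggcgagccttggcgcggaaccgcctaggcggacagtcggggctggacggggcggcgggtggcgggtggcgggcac
Cdc20: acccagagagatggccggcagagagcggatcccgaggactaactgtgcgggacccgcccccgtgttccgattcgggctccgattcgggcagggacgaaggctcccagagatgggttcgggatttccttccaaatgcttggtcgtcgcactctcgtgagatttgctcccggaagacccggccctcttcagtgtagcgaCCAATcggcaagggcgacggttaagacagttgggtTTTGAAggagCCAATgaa
Ube2c: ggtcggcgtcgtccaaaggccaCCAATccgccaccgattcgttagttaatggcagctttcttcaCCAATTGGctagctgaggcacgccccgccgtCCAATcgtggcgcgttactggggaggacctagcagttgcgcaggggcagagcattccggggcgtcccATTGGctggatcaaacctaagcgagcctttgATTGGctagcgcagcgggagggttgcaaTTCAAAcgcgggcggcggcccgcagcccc
Ccnb1: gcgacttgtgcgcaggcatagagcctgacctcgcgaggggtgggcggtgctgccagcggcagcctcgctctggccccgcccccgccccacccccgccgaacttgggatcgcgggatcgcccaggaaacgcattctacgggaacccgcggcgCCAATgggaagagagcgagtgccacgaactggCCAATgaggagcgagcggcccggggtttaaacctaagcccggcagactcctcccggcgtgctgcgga
Top2a and Mki67 hold TTTGAA on 2 occasions each, Cdc20 and Ube2c on 1, and Ccnb1 on none within this window. Plk1 and Aurka, the other checked genes, are not shown and held it on 0 occasions. Promoters are counted once per gene. Of 80 G2 and M phase genes 65 had a promoter in the RefSeq table, and 28 of these (43.1%) held TTTGAA. The share was 18.3% of all 27025 genes with a promoter of the same length. In the smaller list of 15 mitotic genes, 3 of 12 matched promoters (25%) held it. CCAAT was present in 73.8% of the G2 and M phase promoters and in 37.5% of all. Among the arterial genes discussed below, 0 of 15 matched promoters held TTTGAA and 26.7% held CCAAT. A match of letters is not a binding site.

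The labels call all cells hematopoietic stem cells, after the sort, whereas the cycling cells carried endothelial transcripts. The endothelial cadherin Cdh5 was at 20 CPM or more in 99.1% of cells (median 313 CPM), Pecam1, which encodes the sorted CD31, in 98.2%, and the receptors Kdr, Tek and Tie1 in 97.2%, 88.1% and 98.2%. Ptprc, which encodes CD45, reached 20 CPM in 1 cell, while Coro1a, an actin regulator of blood cells, did so in 18 (8.26%), at up to 1066 CPM. The platelet gene Pf4 reached it in 7 cells, smooth muscle actin Acta2 in 7 and Epcam in 5. Of the other markers checked, Pdgfra did so in 5 cells, Was in 4, Pdgfrb in 3, Hba-a1 and Vav1 in 2 each, and Rac2, Krt8 and Ddx4 in 1 each. Hbb-bt, Gata1, Klf1, Col1a1, Cdh1, Dppa3 and Pou5f1 did so in 0. Summed over 13 blood genes, levels ranged from 15 to 1241 CPM in Ctrl cycling cells and from 4.73 to 1740 CPM in Ctrl low cells. The 12 erythroid genes together reached 708 CPM in Ctrl and 30187 CPM in 1 treated cycling cell, against 284 and 2097 CPM in low cells. The 10 mesenchymal genes reached 1022 and 4114 CPM in cycling cells, and 2304 CPM in Ctrl and 33421 CPM in treated low cells. Cells carried 123097 to 2870618 gene-assigned reads. The median was 1057251 reads in Ctrl cycling, 785475.5 in Ctrl low, 889556 in treated cycling and 753935 in treated low cells. Cycling cells also had more genes with a read, 7902 in Ctrl against 7122 in low cells, and at an equal 100000 reads per cell still 6156 against 5515. The numbers that the labels give each library form 2 blocks, below and above 20000, and 90 Ctrl cycling cells came from block 1 and 17 from block 2, against 35 and 13 low and 5 and 6 non-cycling cells. The share of depth, gene number and block in the differences below was not tested. Counts of genes at equal depth are given below without a value over all genes. In pooled cells, fewer cells with a transcript and less of it per cell cannot be told apart from the summed level, so shares of cells are given where they matter.

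Among Ctrl cells, counts were summed over the cells of a class, and a gene was called higher or lower when the ratio of summed CPM, with 1 CPM added to each, was 2-fold or more. Against the 11 non-cycling cells, 20.6% of the 14905 measured genes were called higher in cycling cells and 9.78% lower. Against the 48 low cells the shares were 8.53% and 5.98%. These counts depend on the measure: by the mean of log2(CPM + 1) over cells, 0.55% rather than 5.98% were called lower than in low cells. The median log2 ratio over all genes was 0.10 against non-cycling and 0.01 against low cells, and by the mean of logs the median difference was 0.30 and 0.20. Of the 80 G2 and M phase genes, 77 were called higher against non-cycling and 75 against low cells, which the selection itself implies. Of 49 S phase genes 25 and 29 were called higher. The gene lists described next lie outside the cell cycle and hold no gene of the rule.

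Arterial genes stood at lower levels in cycling Ctrl cells than in low ones. All 21 genes of the arterial list had a negative log2 ratio, and the median was -1.04. Of them 12 were called lower and 0 higher, beside 5.98% and 8.53% of all genes. By the mean of log2(CPM + 1) over cells, 17 of 21 pointed the same way, and after thinning to equal depth a read was found in a smaller share of cycling cells for 15 of 21. Library numbers were also cut into 6 runs. The list median was below 0 within each of the 6, from -1.52 to -0.26. For single genes a count of runs uses mean log2(CPM + 1) unless summed CPM is named. Against the 11 non-cycling cells the pattern was weaker, with 13 genes lower, 8 higher and a median of -0.35. Here 5 were called lower and 3 higher, beside 9.78% and 20.6% of all genes. Only 1 of the 4 runs with enough non-cycling cells gave a median below 0.

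The ligand Dll4 (mm10, chromosome 2 from 119325784 to 119335962 on the plus strand, ENSMUSG00000027314) ran from 0 to 2162 CPM over cycling Ctrl cells, with a median of 216.7, and from 0 to 4501 CPM over low cells, with a median of 437. In the non-cycling Ctrl cells its median was 548 CPM. The range of the cycling cells lay within that of the low cells, which reached higher, and the middle of the cycling cells lay lower. Summed levels were 343 CPM (95% Poisson interval 339 to 346) in cycling and 572 CPM (565 to 579) in low cells, a log2 ratio of -0.74. It was -0.99 in block 1 and -0.16 in block 2, and below 0 in 5 of 6 runs by summed CPM and in all 6 by the mean of logs. A read of Dll4 was present in 89.7% of cycling and 93.8% of low cells, so the difference was one of level more than of cell number.

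Sox7 (ENSMUSG00000063060, chromosome 14, 63943673 to 63950732, plus strand), a SoxF transcription factor of endothelium, was lower in cycling cells under each of the 26 alternative settings tried against low cells, and in 5 of 6 runs taken alone by summed CPM. Its cells ran from 0 to 1302 CPM (median 143.99) in cycling, from 0 to 1763 (median 326) in low and from 14 to 1102 (median 829) in non-cycling Ctrl cells. Summed levels were 208.03, 483 and 613 CPM, giving log2 ratios of -1.21 against low and -1.55 against non-cycling cells. The ranges overlapped, and the highest medians were in the non-cycling cells. Sox7 is also among the 12 lowest genes named below, which had to keep 1 direction against non-cycling cells in each split. Those cells are part of the low cells, so the count of settings is not separate support. The related Sox17 differed less, at 246 CPM in cycling and 318 in low cells (log2 ratio -0.37), and 3 of 6 runs on each side of 0.

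The connexins of arterial gap junctions were detected in few cells. Gja4 (ENSMUSG00000050234, chromosome 4, 127311421 to 127314039, minus strand) had a read in 35.5% of cycling and 50% of low Ctrl cells. Its levels ran from 0 to 1190 CPM and from 0 to 2427 CPM, with medians of 0 and 0.381. The summed levels of 76.6 and 249 CPM gave a log2 ratio of -1.69, which was -2.69 in cluster 2 and 0.38 in cluster 1. Gja5 had a read in 10 cycling and 11 low cells, with summed levels of 10.7 and 123.7 CPM and a log2 ratio of -3.42. Among Xist-positive cells alone its ratio was 2.28. Against non-cycling cells, where 4 of 11 cells had a Gja4 read and 2 had a Gja5 read, the ratios were 2.51 and 0.28, so neither connexin kept its direction.

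Several other arterial genes were lower against low cells by 2-fold or more. Hey1, a Notch-driven repressor of arterial cells, stood at 192.3 CPM in cycling and 388 in low Ctrl cells (log2 ratio -1.01), but at 0.46 on that scale in block 2. Igfbp3, an insulin-like growth factor binding protein, stood at 1075 and 2247 CPM (-1.06) and was lower in 6 of 6 runs by summed CPM. Unc5b, a guidance receptor of arterial and tip cells, was at 63.1 and 161.06 CPM (-1.34) and lower in 6 of 6 runs. Mecom, a transcription factor of arterial endothelium and stem cells, was at 46.6 and 96.7 CPM (-1.04), again lower in 6 of 6. Efnb2, the arterial ephrin, was at 50.4 and 101.01 CPM (-0.99), just under the 2-fold limit. The chemokine receptor Cxcr4 had a read in 23.4% and 39.6% of cells, and its log2 ratio of -1.66 became 0.91 in block 2. Bmx, an arterial kinase, rested on 3 cycling and 10 low cells.

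**Figure D2:**
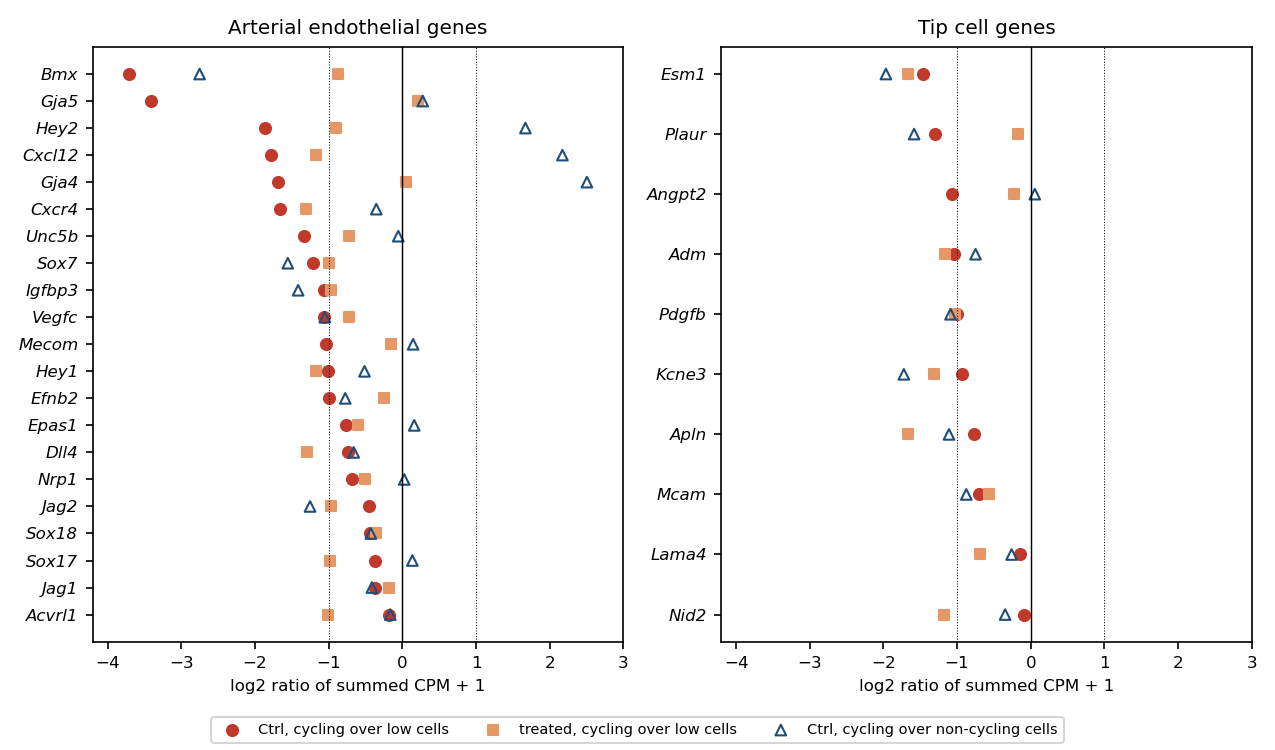
Log2 ratio of summed CPM + 1 for each gene of the arterial list (left) and the tip cell list (right), cycling over low cells in Ctrl (circles) and treated cells (squares) and cycling over non-cycling cells in Ctrl (triangles). Dotted lines mark 2-fold. All circles lie left of 0, while triangles of Gja4, Cxcl12 and Hey2 lie at the right.

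**Figure D3:**
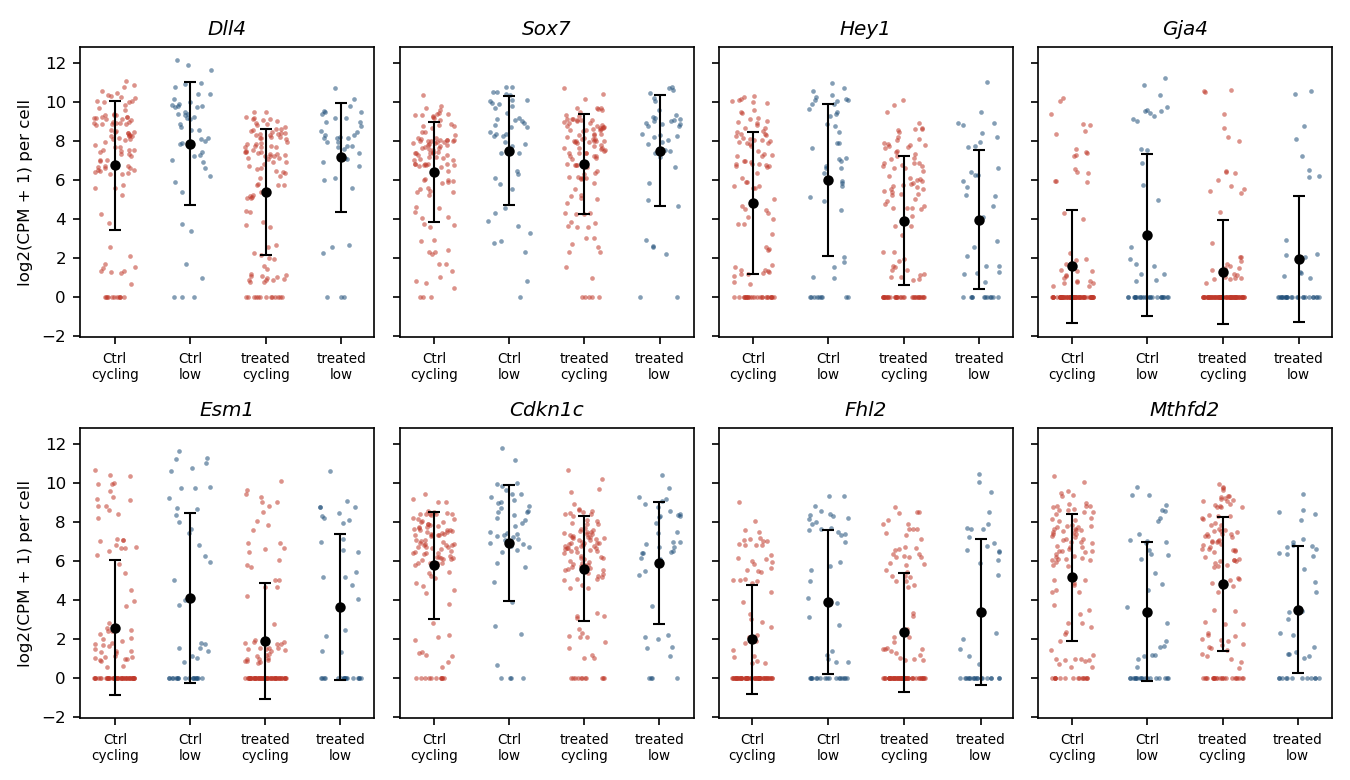
Level of 8 genes in each cell as log2(CPM + 1), for cycling (red) and low cells (blue) of Ctrl and treated samples; the black point is the mean and the bar 1 SD over cells. The ranges overlap for each gene, and means of Dll4, Sox7, Esm1, Cdkn1c and Fhl2 are lower, and that of Mthfd2 higher, in cycling cells of both treatments.

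Notch receptors and modifiers had small ratios on both sides of 0. Of 27 receptors, ligands and modifiers, 11 were higher and 16 lower in cycling than in low Ctrl cells, with a median of -0.18. Only 1 was called higher and 0 lower, beside 8.53% and 5.98% of all genes. By the mean of logs 18 of 27 were higher (median 0.12). Notch1, the main receptor of arterial endothelium, ran from 0 to 1288 CPM over cycling cells (median 215.4) and from 2.49 to 1999 over low cells (median 253). The groups overlapped, with low cells reaching higher, at summed levels of 259 and 293 CPM. Notch4, the receptor restricted to endothelium, was at 98.4 and 150 CPM (log2 ratio -0.61). Notch2, another receptor of the family, was the called gene, at 8.11 CPM with a read in 31.8% of cycling cells and 1.81 CPM with a read in 7 of 48 low cells.

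Notch target genes went both ways. Of 7 measured targets, 5 were lower against low cells, with a median of -0.99. Called lower were 3 of them, beside 5.98% of all genes, and 4 of the 7 (Efnb2, Gja5, Hey1 and Hey2) are on the arterial list too. Hes1, the most widely used Notch target, was higher, at 115.2 CPM in cycling and 76.9 in low Ctrl cells (log2 ratio 0.58), with a read in 88.8% and 72.9% of cells. Nrarp, a feedback inhibitor of Notch signalling, was at 12.2 and 19.5 CPM (-0.63). Against the non-cycling cells the list median was 0.28, with 2 of 7 called higher, beside 20.6% of all genes. It turned negative in block 1 (-0.49), in cells of equal depth (-1.06) and against non-cycling cells taken below 5 CPM (-0.70).

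Tip cell genes, which mark the leading cells of sprouting vessels, had lower summed levels in cycling Ctrl cells against both groups. All 10 were lower against low cells (5 called, median -0.97) and 9 of 10 against non-cycling cells (5 called, median -0.98). Over all genes, 5.98% and 9.78% were called lower in these comparisons. Esm1, a secreted proteoglycan induced by VEGF, ran from 0 to 1623 CPM over cycling cells (median 0.938), from 0 to 3218 over low cells (median 2.13) and up to 3218 over non-cycling cells. A few very high cells therefore set its summed levels of 115.4, 320 and 454 CPM. Its log2 ratio against low cells was -1.46, and it was 2.21 in block 2. Pdgfb, which recruits pericytes, was at 65.1 and 131.7 CPM (-1.01) and lower in 6 of 6 runs by either measure. The potassium channel subunit Kcne3 was at 274 and 524 CPM (-0.93), and Apln, the ligand of the apelin receptor, at 57.9 and 99.8 CPM (-0.78). The list median was below 0 in 6 of 6 runs, and it was -0.42 by the mean of logs and -0.31 in block 2. At equal depth the shares of cells with a read gave no common direction: a larger share of cycling cells had one for 4 of 10 genes against low and 6 of 10 against non-cycling cells.

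The hemogenic transition genes had no direction in Ctrl cells that held across measures. By summed CPM 16 of 19 were lower and 3 higher in cycling than in low cells, with a median of -0.50. Of the 19, 3 were called lower and 1 higher, beside 5.98% and 8.53% of all genes. By the mean of logs 10 were higher and 9 lower (median 0.0086), and at equal depth a read was found in a larger share of cycling cells for 10 and a smaller share for 9. Procr (ENSMUSG00000027611, chromosome 2, 155751117 to 155755471, plus strand), the protein C receptor of stem cell precursors, ran from 0 to 300.5 CPM (median 0) in cycling and from 0 to 936 CPM (median 20.9) in low cells. A read was present in 38.3% and 58.3% of cells. Summed levels were 26.2 and 128.05 CPM, a log2 ratio of -2.25, and -1.85 against non-cycling cells. Runx1, the factor that starts the hemogenic program, had a read in 16 cycling and 7 low cells. Its levels of 9.41 and 18.5 CPM rested on a handful of cells, and 2 of 6 runs had it lower. The log2 ratio of -0.90 became 1.90 in block 1 and 1.86 without the fifth run. Gfi1, which represses endothelial genes during the transition, had a read in 2 cycling and 2 low cells, and Myb in 3 and 3. Gata2 stood at 42.7 and 60.05 CPM, with a read in 57% against 31.3% of cells at full depth, so share and level pointed in opposite directions. Cycling Ctrl cells had more reads per cell, and the share for Gata2 at equal depth is not given here. Kit, the sorted receptor, was at 293 and 335 CPM (log2 ratio -0.19). Against the non-cycling cells the list median was -0.48, and 0.24 in block 1.

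Genes common to all endothelium differed little. Of 22 pan-endothelial genes, 18 were lower in cycling than low Ctrl cells, with 0 called either way and a median of -0.22. Over all genes, 8.53% were called higher and 5.98% lower. Pecam1 ran from 2.67 to 2773 CPM over cycling cells (median 907) and from 62.98 to 3815 over low cells (median 1051). Cdh5 stood at 319 and 404 CPM (log2 ratio -0.34), in ranges that overlapped almost fully. Of 8 venous genes 5 were higher, with a median of 0.08. Aplnr, the apelin receptor of venous and angiogenic cells, was at 909 and 740 CPM (0.30), and Nr2f2, the venous transcription factor, at 33.2 and 25 CPM with a read in 64.5% and 43.8% of cells. Lower against low cells by more than 2-fold was Vwf, the clotting factor carrier, at 60.2 CPM in cycling and 299 in low cells. At full depth, 72.9% and 68.8% of cells had a read of it. Of 10 flow-responsive genes 4 were higher and 6 lower (median -0.07), with Klf2 at 33.2 and 34.8 CPM and the nitric oxide synthase Nos3 at 76.3 and 131.6 CPM.

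Genes of nucleotide synthesis leaned higher in cycling Ctrl cells, with few past 2-fold. Of 22 genes of nucleotide synthesis, 18 were higher in cycling than low Ctrl cells (2 called higher, 0 lower, median 0.39), and 21 of 22 had a read in a larger share of cells at equal depth. Dut, which keeps uracil out of DNA, ran from 0 to 816 CPM over cycling cells (median 137.3) and from 0 to 448 over low cells (median 54.5). It was higher in 6 of 6 runs. Of 13 one-carbon and serine genes, 8 were higher and 5 lower by summed CPM (median 0.16), while all 13 had a read in a larger share of cycling cells at equal depth. Psat1, of serine synthesis, was at 165.07 and 82.4 CPM (log2 ratio 0.99), and Mthfd2, a mitochondrial folate enzyme, had medians of 74.1 and 2.06 CPM at summed levels of 146.7 and 117.4 CPM. Ribosome biogenesis genes were higher in 21 of 25 (1 called, median 0.24). The called shares, 9.09% of nucleotide synthesis and 4% of ribosome biogenesis genes, were near or below the 8.53% of all genes, so the calls do not set these lists apart. Nor do the counts at equal depth, which have no value over all genes beside them.

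Genes of energy metabolism had summed levels close to those of low Ctrl cells but leaned higher by the other measures. Of 19 glycolytic genes 12 were higher and 7 lower than in low cells, with a median of 0.03. Only 1 was called lower, beside 5.98% of all genes. Slc2a1, the main glucose transporter of this endothelium, ran from 5.22 to 7332 CPM over cycling cells (median 1687) and from 5.69 to 21739 over low cells (median 2199). Those ranges overlapped, but only low cells exceeded 7332 CPM. Hk1, a hexokinase, was at 69.9 and 133.7 CPM (log2 ratio -0.93), while Hk2, a second hexokinase, was at 13.2 and 13.9 CPM. Pgk1, Pkm and Ldha, of the later steps, had ratios of 0.23, 0.09 and 0.16. Against non-cycling cells 15 of 19 were lower (median -0.36), a value that was -0.02 at equal depth and 0.10 in Y-positive cells. Of 58 oxidative phosphorylation genes 33 were higher than in low cells, with 0 called and a median of 0.03, and of 18 TCA cycle genes 12 were higher (median 0.17). By the mean of logs, 54 of 58 and 18 of 18 were higher (medians 0.35 and 0.60), as were 15 of 19 glycolytic genes (0.40), beside 0.20 over all genes. At equal depth a read was found in a larger share of cycling cells for 52 of 58, 17 of 18 and 12 of 19. So it was for 12 of 13 p53 targets and 11 of 14 stem cell regulators, but for 6 of 21 arterial genes. The counts at equal depth therefore do not set the metabolic genes apart.

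Inhibitors of cyclin-dependent kinases lay on both sides. Cdkn1c (ENSMUSG00000037664, chromosome 7, 143458339 to 143461050, minus strand), an imprinted inhibitor linked to quiescence, ran from 0 to 693 CPM over cycling cells (median 102.1) and from 0 to 3583 over low cells (median 165.997). Its summed levels were 142.8 and 361 CPM, a log2 ratio of -1.33 that was below 0 in 6 of 6 runs by summed CPM and in 5 by the mean of logs. Cdkn1b, the inhibitor p27, was higher in cycling cells, at 31.8 and 14.7 CPM (1.07), with a read in 75.7% and 52.1% of cells and higher in 6 of 6 runs. Cdkn2d was at 53.4 and 14.8 CPM (1.79), and Cdkn1a, a p53 target, at 117.4 and 72.3 CPM (0.69). Of 15 measured inhibitors and quiescence genes 9 were higher and 6 lower, with 6 called higher and 1, Cdkn1c, called lower. Over all genes, 8.53% were called higher and 5.98% lower. Mycn and Myc, drivers of growth, stood at 81.01 and 51.3 CPM in cycling and 120.7 and 59.1 CPM in low cells.

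**Figure D4:**
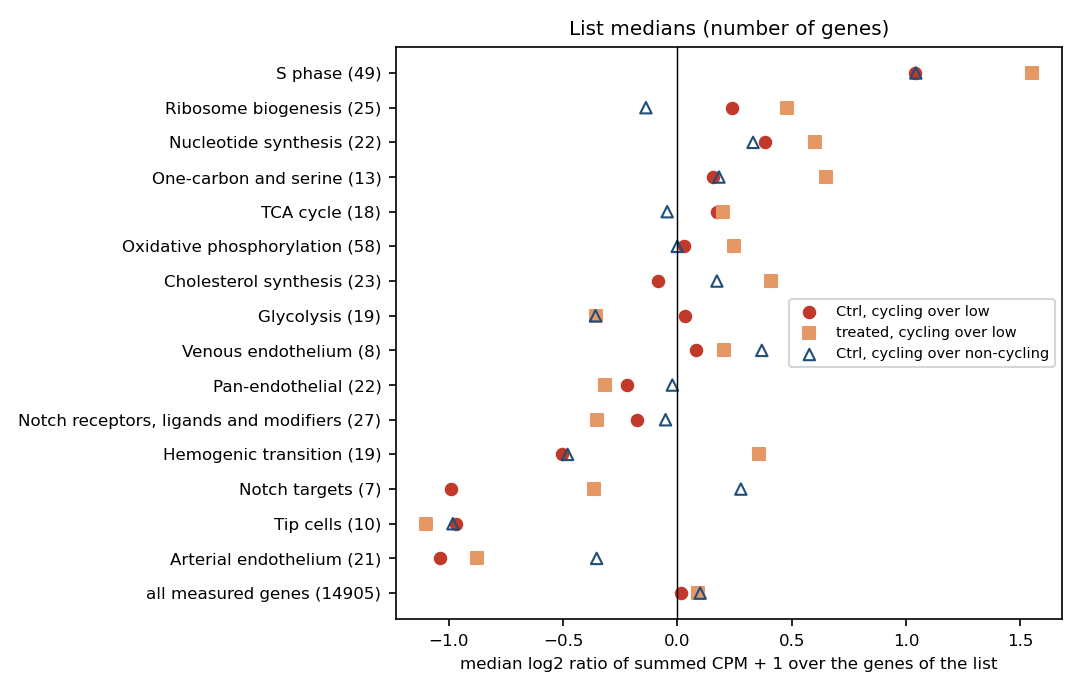
Median log2 ratio of summed CPM + 1 over the measured genes of each list (number in brackets), cycling over low cells in Ctrl (circles) and treated cells (squares), and cycling over non-cycling cells in Ctrl (triangles). Arterial and tip cell lists lie near -1 against low cells in both treatments, nucleotide synthesis lies right of 0 in all 3, and the hemogenic list lies on opposite sides of 0 in Ctrl and treated cells on this measure, though not by the mean of logs.

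Across all genes outside the cell cycle families, 0.792% were lower and 10.3% higher in cycling than non-cycling cells in both treatments, in both Ctrl blocks and in clusters 1 and 2 by each measure used. The 12 lowest were Adck5, Ankmy2, Disp2, Dok1, Efl1, Fhl2, Ier3, Sox7, Tex264, Tns1, Wipi1 and Zfp771. Fhl2, a LIM domain cofactor, ran from 0 to 517 CPM over cycling cells (median 0), and from 0 to 635 over low cells (median 10.6). It stood at 30.3 CPM in cycling, 106.6 in low and 204.3 in non-cycling Ctrl cells, and was lower than in low cells in 6 of 6 runs. Wipi1, of autophagosome formation, stood at 30.4, 64.4 and 133.2 CPM, and Tex264, a receptor for autophagy of the endoplasmic reticulum, at 20.9, 66.4 and 95.6 CPM. The 12 highest were Arhgap19, Dek, Gstm5, Hat1, Lsm3, Nckap1, Nup205, Odf2, Pkmyt1, Reep4, Tmem173 and Trim59. Some have known roles in division that the filter on family names did not remove, among them Pkmyt1, the kinase that restrains Cdk1, and Hat1, which acetylates new histones. Dek, a chromatin protein, was at 226.8, 94.9 and 49.8 CPM. The genes of both sets were picked on their difference from the non-cycling Ctrl cells, and the low cells include those cells. Their levels in low cells and the counts of runs are therefore not separate support.

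In treated cells the same comparison gave 36.7% of genes called higher and 11.6% lower against the 4 non-cycling cells, and 10.8% and 6.09% against the 40 low cells. Outside the cell cycle families, the genes called lower than in low cells in both treatments were 21.1% of the 883 lower in Ctrl and 20.8% of the 896 lower in treated cells. Arterial genes again lay lower: 19 of 21 against low cells, 5 called lower and 0 higher, median -0.88, and negative within each of the 5 runs that could be compared. The median was -0.29 by the mean of logs, and at equal depth only 10 of 21 had a read in a smaller share of cycling cells, so the treated difference was mostly one of summed level. Dll4 ran from 0 to 706 CPM over treated cycling cells (median 103.7) and from 0 to 1678 over treated low cells (median 263.5). Its summed levels were 163.6 and 402 CPM, a log2 ratio of -1.29. The ranges overlapped, with the cycling cells lower in the middle as in Ctrl. Sox7 stood at 272 and 541 CPM (-0.99) and Hey1 at 95.8 and 216.5 CPM (-1.17). Gja4 and Gja5, lower in Ctrl cycling cells, had treated ratios of 0.04 and 0.22.

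Other lists in treated cells, compared with treated low cells, are given beside the Ctrl values above. Over all genes, 10.8% were called higher and 6.09% lower in that comparison. Tip cell genes were lower in 10 of 10 (6 called, median -1.10), with Esm1 at 53.8 and 173.1 CPM and Apln at 83.9 and 267 CPM. Nucleotide synthesis genes were higher in 19 of 22 (5 called, median 0.60), one-carbon and serine genes in 12 of 13 (2 called, median 0.65) and ribosome biogenesis genes in 21 of 25 (4 called, median 0.48). Hemogenic genes were higher in 13 of 19 (3 called higher, 2 lower, median 0.36), the opposite side of 0 from Ctrl by summed CPM alone. By the mean of logs 15 of 19 were higher (median 0.23), and at equal depth a larger share of cycling cells had a read for 13 of 19. Runx1 stood at 9.33 CPM with a read in 20 cycling and 5.28 CPM with a read in 10 low treated cells. Procr was at 32.9 and 87.3 CPM, lower in cycling cells as in Ctrl. Glycolytic genes were lower in 16 of 19 (3 called lower, 1 higher, median -0.36), with Slc2a1 at 1696 and 3254 CPM. Cdkn1a was lower in treated cycling than treated low cells, at 135.8 and 335 CPM, and higher in Ctrl. These differences between treatments were not tested.

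Between treatments, cycling cells differed in fewer genes than low cells did. Among cycling cells, 2.19% of genes were called higher and 2.56% lower in treated than Ctrl cells, whereas among low cells the shares were 7.17% and 10.3%. The cycling classes hold more cells than the low ones (48 and 40), and how much that number adds to the contrast was not tested. Of the 21 arterial genes 9 were higher and 12 lower in treated cycling cells, with 1 called higher, 2 called lower and a median of -0.03. Among low cells 6 were called lower and 0 higher, with a median of -0.45. Dll4 had a treated over Ctrl log2 ratio of -1.06 among cycling and -0.51 among low cells, and Hey1 of -0.998 and -0.84. Gja4 had ratios of -0.03 and -1.76. These comparisons share the same Ctrl and treated samples with those above. Sex also differed between treatments: 26 treated cycling cells were Xist-positive and 76 Y-positive, against 53 and 49 in Ctrl. Among low cells the numbers were 10 and 23 in treated and 22 and 19 in Ctrl. How much sex and block add to these ratios was not tested.

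The share of cycling cells in clusters 1, 2 and 3 was 53.2% in Ctrl (exact Clopper-Pearson 95% interval 46.1 to 60.3%) and 57.2% in treated cells (49.9 to 64.3%). The difference of 3.98 percentage points had a Newcombe 95% interval of -5.78 to 13.6 points. The interval includes 0, so at this number of cells the difference could not be told from counting error. In cluster 1 the shares were 62.9% and 62.8%. They were 46.6% and 52.8% in cluster 2 (difference 6.20 points, -9.85 to 21.8) and 38.7% and 52.8% in cluster 3 (14.1 points, -9.47 to 35.4). Within Ctrl, cluster 1 exceeded cluster 2 by 16.3 points (1.25 to 30.5) and cluster 3 by 24.2 points (4.08 to 41.6). In treated cells both gaps were 10.01 points, with intervals that included 0.

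The treatment difference was not alike across libraries. It was -0.907 points in block 1 (-11.9 to 10.1) and 20.1 points in block 2 (0.0894 to 37.9). In the 6 runs of 96 library numbers it was 17.98, 5.13, -14.3, -15.8, -1.95 and 42.9 points, an SD of 22.2 points, so the pooled 3.98 points was smaller than the spread between runs. Block also went with sex in the treated cells. Those of block 1 with a call carried Y-linked transcripts and those of block 2 carried Xist, while Ctrl cells of both kinds occurred in both blocks. Among Y-positive cells of block 1 the shares were 56.2% in Ctrl and 58.9% in treated cells. Among Xist-positive cells of block 2 they were 38.1% and 59.1%. The intervals cover counting error only, not the spread between embryos.

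**Figure D5:**
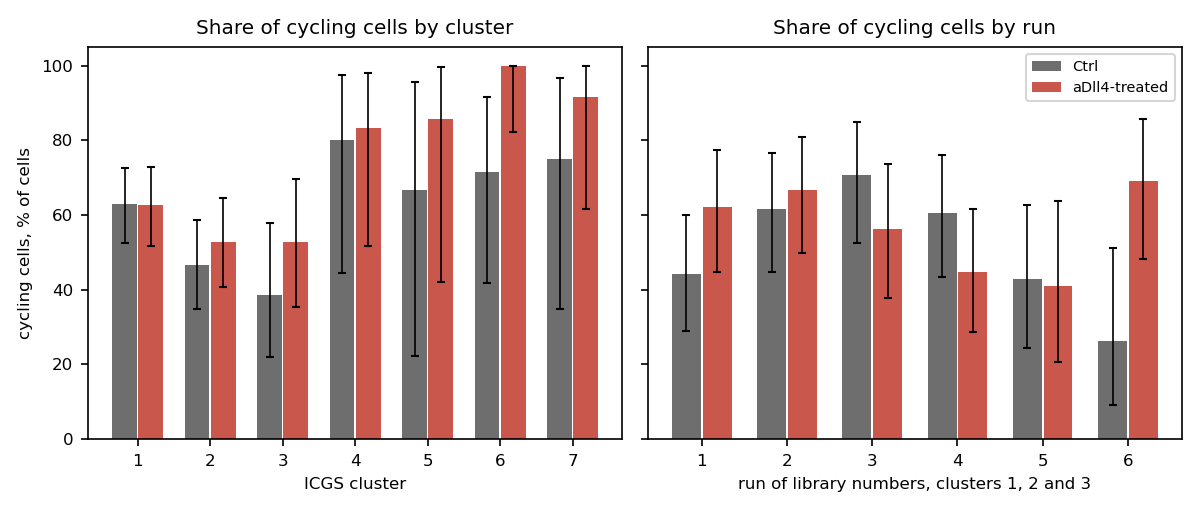
Percentage of cells with Top2a and Mki67 both at 20 CPM or more in Ctrl (grey) and treated cells (red), by ICGS cluster (left) and by run of library numbers in clusters 1, 2 and 3 (right). Bars are shares and lines exact 95% intervals. Cluster 1 shows equal shares of 62.9% and 62.8%, and the runs differ in direction, from -15.8 points in run 4 to 42.9 points in run 6.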

How the data were processed

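Single cells were processed by Smart-seq2, per the labels' protocols, a method that amplifies whole transcripts without molecular identifiers or strand information, so overlapping and antisense genes cannot be told apart. The authors deposited raw counts, in whole reads for each gene of each cell. The tools were GSNAP 2015-09-29 and HTSeq 0.6.0 with the mm10 build, per the submitters' processing notes. The annotation release and counting settings were not given in the sources used here. Symbols were found for 45143 of 46078 identifiers, and positions came from the GENCODE annotation of the same build.

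All 483 cells were kept, 0 pairs of columns were identical, and doublets were not called, so a well with more than 1 cell would remain. CPM is a cell's count over its total. Class levels are summed counts as CPM with exact Poisson intervals. A gene was measured if 5% of the cells of clusters 1, 2 and 3 had a read (14905 genes). The fold change is the log2 ratio with 1 CPM added, which understates low genes. Intervals cover counting error only, since amplified reads are not independent molecules. Sex calls needed 10 reads of Xist or of Y-linked genes, and 0 cells had both. Members and lists were chosen with earlier results of these data known. Named genes were a standing list, the 3 members of each of 35 lists with the largest ratio against non-cycling Ctrl cells, and the 12 highest and 12 lowest genes outside cell cycle families. The latter had to keep 1 direction by summed CPM, mean log2(CPM + 1) and share of cells, in both treatments, both Ctrl blocks and clusters 1 and 2. Other members were named from the list counts after their values were seen. The comparison with low cells was chosen after the data had been seen. The alternatives were other thresholds, equal depth, mean log2(CPM + 1), edgeR TMM scaling (edgeR 4.0.16 in R 4.3.3), other added values and filters, single clusters, blocks, runs and sexes. The calculations used Python 3.11.15, numpy 2.4.6, pandas 2.3.3 and SciPy 1.17.1, and were tested on simulated counts.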

Additional observations from a re-analysis of the deposited data

Results flagged for a closer look

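In 18 genes named by the rule, the summed level of cycling cells lay 2-fold or more on one side of non-cycling cells in Ctrl and on the opposite side in treated cells. Over all measured genes, 20.6% were called higher and 9.78% lower in Ctrl, and 36.7% and 11.6% in treated cells. How many of all genes lay on opposite sides was not counted. Part of the named genes were picked for a large ratio against the same Ctrl non-cycling cells. The count of 18 therefore does not set these genes apart. The difference between treatments was not tested, and only 4 treated and 11 Ctrl cells stand on the non-cycling side. As the treated minus Ctrl log2 ratio, the difference was 9.92 for Acta2, 7.97 for Coro1a, 7.04 for Spi1, 6.85 for Plaur, 6.32 for Rrp9 and 5.88 for Ikzf2. It was 5.05 for Mllt3, 5.01 for Krt18, 4.75 for Bmx, 4.70 for Rpia and 2.69 for Vldlr. In the other direction it was -8.15 for Chac1, -5.36 for Dll1, -3.53 for Gja4, -3.53 for Notch3, -3.44 for Cdkn1a, -3.44 for Hey2 and -2.96 for Hoxa5. Bmx, Coro1a, Ikzf2, Krt18, Rpia and Rrp9 had no read in the treated non-cycling cells, and Hey2 had none in the Ctrl non-cycling cells, so these values depend on the 1 CPM added. Single cells also carry many of them. A Ctrl non-cycling cell of cluster 3 held 2262 CPM of Acta2, where the next Ctrl cell had 5.34, and also 590.1 CPM of Coro1a, 361 of Spi1, 281 of Ikzf2, 81.1 of Krt18 and 88.6 of Bmx. A treated cell of cluster 2 held 616 CPM of Chac1 and 97.1 of Dll1, and one of cluster 1 held 104.97 CPM of Hey2 and 91.5 of Notch3. Cdkn1a stood at 1826 CPM in another treated cell of cluster 1.

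Against low cells, 2 of these genes again lay on opposite sides in the treatments. Coro1a, an actin regulator of blood cells, had a difference of 3.21, from 10.2 and 37.4 CPM in Ctrl and 24.9 and 8.60 CPM in treated cycling and low cells. Spi1, a myeloid transcription factor, had a difference of 5.41, and its treated low value rests on 3 reads. This difference was not tested either. Over all genes, 8.53% were called higher and 5.98% lower than in low cells in Ctrl, and 10.8% and 6.09% in treated cells. Here too, how many of all genes lay on opposite sides was not counted.

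Clusters 4 to 7, outside the comparisons above, also held cells with both marker genes at 20 CPM or more. They were 84.1% of the 88 cells (74.8 to 91.02%), at 73.7% in Ctrl and 92% in treated cells. By cluster the shares were 81.8%, 76.9%, 87.9% and 85%.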

How the results depend on the processing

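Values as reported come first below, then those that moved, each with its alternative; of single genes only those that turned are given. "All other cells" sets cycling cells against every other cell of the clusters. "No highest cell" leaves out each gene's highest cell in each class. The comparisons with low cells were chosen after the data had been seen. Genes are given as percentages of those measured. Genes higher in cycling Ctrl cells, 20.6%, came to 31.9 (no read of either gene), 10.1 (below 5 CPM), 11.8 (equal depth), 7.32 (10 CPM added), 12.9 (no filter), 17.3 (a read in 20% of cells), 31.1 (cluster 1), 32.6 (block 1), 35.4 (no highest cell), 31.5 (Y-positive cells) and 5.51 (all other cells). Genes lower in cycling Ctrl cells, 9.78%, came to 2.99 (mean of logs), 4.05 (10 CPM added), 7.997 (a read in 20% of cells), 2.4 (no highest cell) and 4.8 (all other cells). Genes higher in cycling treated cells, 36.7%, came to 13.2 (below 5 CPM), 15.8 (equal depth), 17.3 (10 CPM added), 21.5 (no filter), 58.4 (no highest cell) and 5.97 (all other cells). Genes lower in cycling treated cells, 11.6%, came to 7.11 (below 5 CPM), 7.69 (10 CPM added), 6.86 (no filter), 1.95 (no highest cell) and 4.01 (all other cells). Genes higher in cycling than low Ctrl cells, 8.53%, came to 2.38 (10 CPM added), 7.22 (a read in 20% of cells), 14.8 (cluster 1), 13.7 (cluster 2), 19.1 (block 2), 15 (Y-positive cells), 13.5 (Xist-positive cells) and 5.51 (all other cells). Genes lower in cycling than low Ctrl cells, 5.98%, came to 0.55 (mean of logs), 1.06 (10 CPM added), 4.8 (no filter), 3.27 (a read in 20% of cells), 9.67 (cluster 1), 10.5 (cluster 2), 12.9 (block 2), 3.48 (no highest cell) and 10.1 (Y-positive cells). Genes higher in cycling than low treated cells, 10.8%, came to 3.19 (10 CPM added), 7.13 (no filter), 9.29 (a read in 20% of cells), 21.6 (cluster 2), 21.8 (block 2), 22.9 (Xist-positive cells) and 5.97 (all other cells). Genes lower in cycling than low treated cells, 6.09%, came to 0.496 (mean of logs), 1.46 (10 CPM added), 4.9 (no filter), 3.64 (a read in 20% of cells), 9.5 (cluster 2), 12.7 (block 2), 3.06 (no highest cell), 13.2 (Xist-positive cells) and 4.01 (all other cells). Notch targets over non-cycling Ctrl cells, 0.28, came to 1.67 (no read of either gene), -0.70 (below 5 CPM), -1.06 (equal depth), -0.53 (mean of logs), -0.45 (a read in 20% of cells), 1.32 (cluster 1), -0.49 (block 1), 1.00 (block 2), 1.00 (no highest cell), -0.90 (Y-positive cells) and -0.71 (all other cells). Hemogenic transition over non-cycling Ctrl cells, -0.48, came to 0.13 (no read of either gene), 0.20 (cluster 2), 0.24 (block 1), -1.16 (Y-positive cells) and 0.18 (Xist-positive cells). Glycolysis over non-cycling Ctrl cells, -0.36, came to -0.032 (below 5 CPM), -0.016 (equal depth), 0.10 (Y-positive cells) and 0.060 (all other cells). Arterial endothelium over low Ctrl cells, -1.04, came to -1.65 (cluster 2) and -0.49 (Xist-positive cells). Tip cells over low Ctrl cells, -0.97, came to -0.42 (mean of logs) and -0.31 (block 2). Arterial endothelium over low treated cells, -0.88, came to -0.29 (mean of logs) and -0.32 (Xist-positive cells).

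The direction of these single genes, 2-fold or more as reported, turned. Gja4 over low Ctrl cells, -1.69, came to 0.38 (cluster 1). Gja5 over low Ctrl cells, -3.42, came to 2.28 (Xist-positive cells). Hey1 over low Ctrl cells, -1.01, came to 0.46 (block 2). Hey2 over low Ctrl cells, -1.86, came to 2.28 (block 2). Cxcr4 over low Ctrl cells, -1.66, came to 0.91 (block 2). Cxcl12 over low Ctrl cells, -1.78, came to 0.052 (mean of logs), 1.35 (cluster 1), 1.34 (block 2), 0.29 (no highest cell), 0.61 (Xist-positive cells) and -2.53 to 0.67 (1 run left out). Esm1 over low Ctrl cells, -1.46, came to 2.21 (block 2). Adm over low Ctrl cells, -1.04, came to 0.12 (block 2). Cd44 over low Ctrl cells, -1.72, came to 3.22 (Xist-positive cells). Esm1 over non-cycling Ctrl cells, -1.97, came to 4.71 (block 2) and 4.26 (Xist-positive cells). Edn1 over non-cycling Ctrl cells, -1.77, came to 3.17 (cluster 1) and 3.76 (block 1). Aqp1 over non-cycling Ctrl cells, -1.70, came to 3.03 (cluster 2), 1.37 (block 2), 1.86 (no highest cell), 2.64 (Xist-positive cells) and -2.52 to 2.65 (1 run left out). Hk2 over non-cycling Ctrl cells, -1.01, came to 0.64 (cluster 1), 0.46 (block 1), 0.65 (no highest cell), 0.34 (Y-positive cells), 0.16 (all other cells) and -1.56 to 0.68 (1 run left out). Klf2 over non-cycling Ctrl cells, 4.97, came to -0.20 (below 5 CPM). Mycn over non-cycling Ctrl cells, -1.48, came to 0.75 (no read of either gene) and 0.25 (mean of logs). Below 2-fold as reported, Runx1 over low Ctrl cells, -0.90, lay on the opposite side in 6 of 25 alternatives, among them 1.90 (block 1), 3.65 (Xist-positive cells) and 1.86 (without run 5). Nrp1, -0.68, came to 0.14 (cluster 1), Jag1, -0.37, to 0.96 (block 2) and Acvrl1, -0.18, to 0.64 (mean of logs).

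Leaving out 1 run at a time moved the arterial median over low Ctrl cells from -1.13 to -0.76, that of tip cells from -1.03 to -0.80, and the treatment difference in cycling share from -0.687 to 8.72 points. TMM scaling turned 1 sign among all results compared, that of oxidative phosphorylation over non-cycling Ctrl cells, to 0.019. An alternative that left a class with fewer than 2 cells has no value. The causes of these shifts were not tested. No paired analysis was possible because the numbers in the labels only count the cells of each treatment and no result comes from a test. The 15 non-cycling cells, 4 of them treated, limit what was detectable for genes read in few cells.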
